A study of Rattus norvegicus with 24 samples.

Results

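These data describe what Noggin did to the transcriptome of irradiated rat neurospheres, by comparing 4 samples treated with Noggin and 1 Gy (NGy) with 4 samples given 1 Gy alone (CGy). The 8 samples were chosen by their group alone, out of 24 samples in 6 groups, and the deposited table lists 16478 genes by Ensembl identifier. All neurospheres were grown from neural progenitor cells taken from the brains of E15 Sprague Dawley fetuses, as free-floating spheroids in medium with epidermal and fibroblast growth factor. X-rays were given on day 3 after seeding. Recombinant Noggin at 5 µM was added the day before irradiation and again after it. The CGy samples are labelled as given 1 Gy and no compound, and the study describes vehicle as the pretreatment where no compound was used. Per the study's results, RNA was taken a week after irradiation, and its poly(A) fraction was sequenced. The study's methods have neurospheres in culture for up to a week before analysis, so the time of sampling is not certain. The other groups were the unirradiated control (C), Noggin without radiation (N) and ascorbic acid at 200 µM without (A) and with 1 Gy (AGy). The labels do not say whether the 4 samples of a group came from separate cultures or litters, so the p-values below measure only the spread between these samples, which may be technical.

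Noggin is a secreted protein that binds bone morphogenetic proteins (BMPs) outside the cell and keeps them from their receptors. BMP receptors act through Smad transcription factors, whose targets include the Id genes, and in neural progenitors BMP signalling is known for favouring astrocyte over neuronal and oligodendrocyte fates. The comparison of NGy with CGy therefore asks which transcripts differ when a BMP antagonist is present during and after irradiation. The files do not pair the Ensembl identifiers with symbols, and 0 of 16478 identifiers had a match in the gene table used here. No gene is therefore named by symbol below, the BMP, astrocyte and other gene lists prepared for this comparison could not be applied, and the labelled cell type was not checked against its markers. Because these are bulk samples, fewer cells of a type and less RNA per cell cannot be told apart.

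Few transcripts passed the test for a difference between irradiated neurospheres with and without Noggin. Levels are in TPM, a measure of transcript abundance scaled for transcript length and for the library. Of 9686 genes whose NGy or CGy mean reached 1 TPM, 38 differed between NGy and CGy at an adjusted p of at most 0.05 and at least 1.5-fold, which is 0.392% of the genes tested. Of these, 24 rose and 14 fell with Noggin, and in all 38 the 4 NGy samples lay entirely above or entirely below the 4 CGy samples, as they did in 12.1% of all genes tested. The call used these same samples and favours genes whose groups lie apart, so this is a description. The log2 changes of the rises ranged from 0.62 to 2.20 with a median of 0.91, and 11 of 24 were at least 2-fold. The falls ranged from -2.20 to -0.59 with a median of -0.66, and 2 of 14 were at least 2-fold. These 2 include ENSRNOG00000015333, which was listed at 0 in all 4 NGy samples, so the size of its fall is uncertain. At the adjusted p alone, 102 genes passed, 42 higher and 60 lower in NGy. At an unadjusted p under 0.05 by limma there were 1728 of 9686 genes, so a gene that was not called need not be unchanged.

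The split between rises and falls changed under 1 of 2 other scalings of the samples and with a higher minimum level. Summed over the listed genes, the CGy samples held 622007 to 649751 TPM and the NGy samples 650049 to 655264 TPM, so the totals did not overlap. With every sample set to the same total, 46 genes were called, 21 higher and 25 lower in NGy, in place of 24 and 14. Of the 38 genes, 35 were among these 46. Quantile normalization gave 24 higher and 11 lower. With a minimum mean of 5 TPM in place of 1 TPM, 41 genes were called, 19 higher and 22 lower in NGy. The median log2 change of all genes tested was -0.02 as deposited and -0.07 with every sample set to the same total. After quantile normalization it was -0.002.

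**Figure D1:**
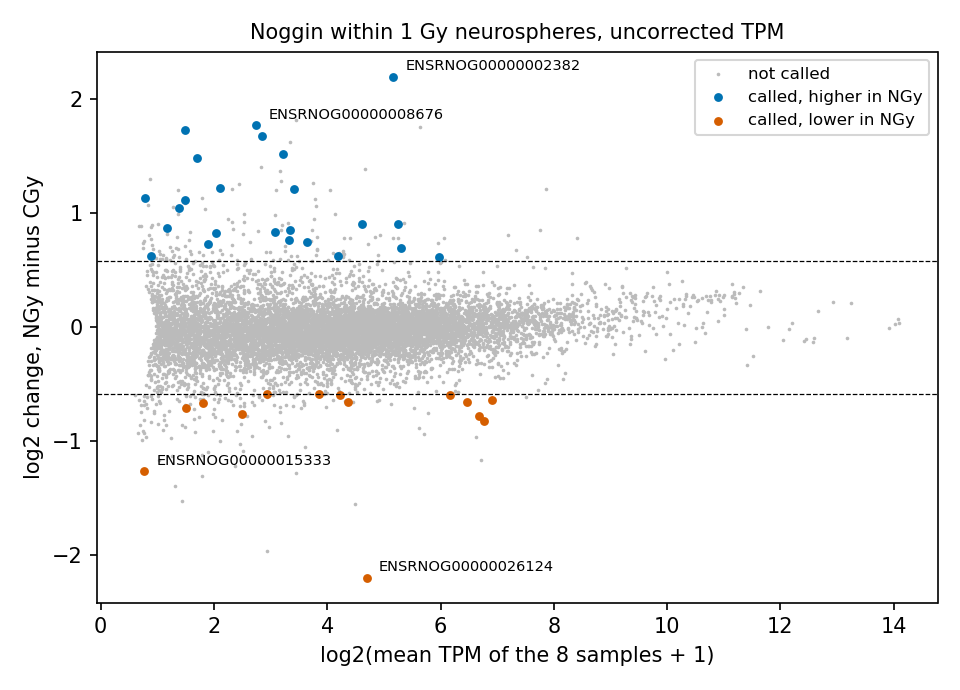
Log2 change between NGy and CGy (vertical axis) against the log2 of the mean TPM of the 8 samples plus 1 (horizontal axis) for 9686 genes, with the 1.5-fold limits dashed. The 24 rises and 14 falls that passed the test are coloured, and the grey points past the dashed lines are genes that did not pass the adjusted p.

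The called genes had a lower median level than all genes tested. Their median level over the 8 samples was 8.62 TPM, against 16.5 TPM for all genes tested. The rises had a median level of 6.82 TPM and the falls of 18.7 TPM. Against 0.392% of all genes tested, the share called was 0.80% of 994 genes with a mean under 2 TPM. It was 0.46% of 1318 genes at 2 to 5 TPM and 0.43% of 3040 genes at 5 to 20 TPM. Of 3380 genes with a mean of 20 to 100 TPM, 5 rose and 3 fell (0.24%). Of 954 genes over 100 TPM, 3 fell and none rose (0.31%). Whether the share differed with level was not tested. In the falls the CGy mean exceeded 50 TPM in 5 of 14 genes. Of the 24 rises, 7 had a CGy mean under 1 TPM and entered the test only through their NGy values. Of the 14 falls, 1 had an NGy mean under 1 TPM.

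The median 95% half-width of a log2 change was 0.23, and for 7525 of 9686 genes (77.7%) the whole 95% interval lay within 1.5-fold in either direction. The estimated change was at least 1.5-fold in 296 genes, and 38 of these 296 also passed the adjusted p.

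The genes named below were picked as the largest changes among called genes whose NGy and CGy samples did not overlap. Their separation between NGy and CGy is therefore a description. The largest rise was in ENSRNOG00000002382. Its CGy samples had 12.8, 8.36, 12.1 and 14.3 TPM, and its NGy samples had 58.2, 44.7, 66.3 and 62.3 TPM. The groups were far apart, with 11.9 ± 2.52 TPM (SD, n = 4) against 57.9 ± 9.39 TPM (SD, n = 4). On the log2(TPM + 1) scale the change was 2.20 ± 0.18 (SE), at an adjusted p of 0.00305 by limma. The same gene was at 45.5 to 59.3 TPM in the unirradiated N samples, and at 5.42 to 15.6 TPM in the 16 samples of the series without Noggin. All 8 Noggin samples therefore stood above all 16 others, with or without radiation.

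ENSRNOG00000008676 was the second largest rise and had lower levels. It was at 1.85, 1.56, 2.36 and 2.23 TPM in CGy and at 7.38, 7.48, 10.6 and 12.1 TPM in NGy. The lowest NGy sample was above the highest CGy sample by a wide margin, and the log2 change was 1.77 ± 0.17 (SE), at an adjusted p of 0.00521 by limma. Without radiation, Noggin samples had 4.12 to 6.13 TPM, below every NGy sample and above every sample without Noggin. The log2 change of this gene with Noggin was larger with 1 Gy than without it by 0.57 ± 0.26 (SE), a difference that did not pass adjustment (adjusted p = 0.298, limma interaction).

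The largest fall was in ENSRNOG00000026124. The CGy samples had 30.7, 27.9, 52.8 and 55.8 TPM, and the NGy samples had 9.20, 7.32, 7.79 and 7.48 TPM. The spread in CGy, 41.8 ± 14.6 TPM (SD, n = 4), was much wider than that in NGy, 7.95 ± 0.86 TPM (SD, n = 4), and the groups did not overlap. The log2 change was -2.20 ± 0.23 (SE), at an adjusted p of 0.00764 by limma. The N samples, at 5.28 to 9.15 TPM, were as low as the NGy samples, while the C samples were at 20.4 to 32.8 TPM, the A samples at 17.8 to 28.3 TPM and the AGy samples at 24.1 to 31.9 TPM. For this gene too, the 8 Noggin samples lay apart from the 16 others.

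ENSRNOG00000015333 was the other fall that the naming rule gave. It was listed at 0 in all 4 NGy samples and at 1.35, 1.46, 1.35 and 1.46 TPM in the CGy samples. An exact 0 in a table of estimated abundances can be a failed estimate, so no fold is given. In the rest of the series the gene was listed at 0 in 2 of 4 C, 2 of 4 N, 2 of 4 A and 1 of 4 AGy samples, and no sample had a value between 0 and 0.69 TPM. Its adjusted p by limma was 4.04e-05, the smallest of the 38, and rose to 0.193 when the spread was estimated from all 6 groups. Over all alternatives its adjusted p by limma ranged from 2.75e-08 to this value, and it passed in 15 of 16. In the whole table, 5 genes were listed at 0 in all NGy samples and above 0 in all CGy samples, and 5 the other way round.

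**Figure D2:**
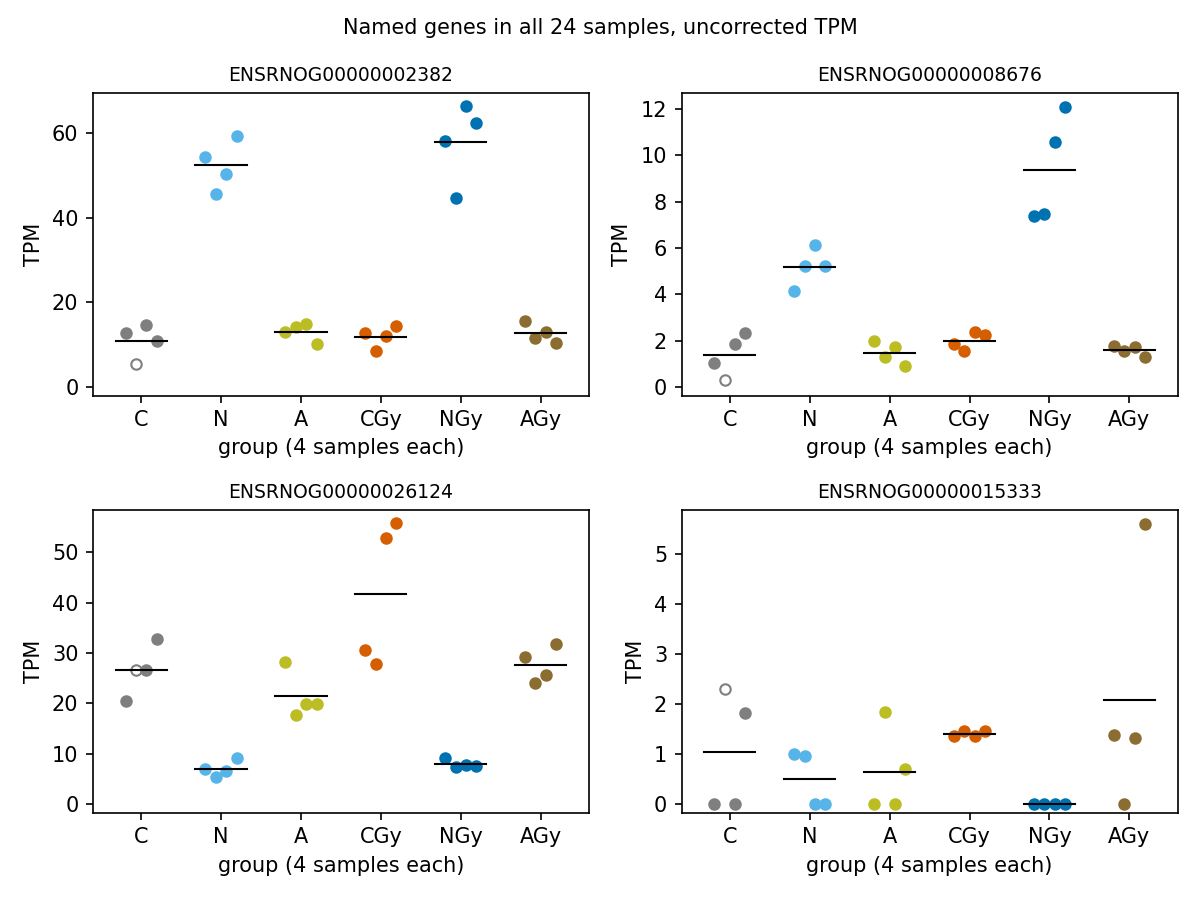
TPM of the 4 named genes in each of 24 samples (points) by group, with the group mean as a line; the open point is MO2, the control sample that the authors removed. In 3 of the 4 genes the N and NGy samples stand apart from the 16 samples without Noggin, and in ENSRNOG00000015333 the samples of the other groups are split between 0 and values of 0.69 TPM or more.

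The unirradiated Noggin and control samples took no part in choosing the 38 genes, and they allowed the same genes to be followed without radiation. With MO2 left out, 22 of the 24 genes that rose in NGy were also higher in N than in C, where 57.4% of all 9686 genes were higher in N. In 11 of these 24 the N samples lay entirely above the C samples, against 7.61% of all genes tested. The median log2 difference between N and C was 0.74 over the 24 genes and 0.04 over all genes, and 14 of 24 were at least 1.5-fold higher in N, against 4.13% of all genes. The 24 genes had a lower median level than all genes tested, 6.82 against 16.5 TPM, and 7 of them entered the test only through their NGy values. The shares of all genes in the comparisons of N with C were not matched for level.

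Of the 14 genes that fell in NGy, 8 were lower in N than in C, where 42.5% of all genes were lower. In 1 of 14, ENSRNOG00000026124, the N samples lay entirely below the C samples, against 5.27% of all genes. The median log2 difference was -0.04 over the 14 genes, and 2 of 14 were at least 1.5-fold lower in N, against 1.35% of all genes. With MO2 kept, the corresponding counts were 22 of 24 and 6 of 14, with 74.4% of all genes higher in N. Whether rises and falls differed in this respect was not tested.

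By limma, 1 of the 38 genes passed an adjusted p of at most 0.05 in N against C, and it was the only one of all 9686 genes to do so (0.0103%), where 1150 genes had an unadjusted p under 0.05. This was ENSRNOG00000002382, with a log2 difference of 1.96 ± 0.13 (SE) and an adjusted p of 0.00975 by limma, which became 0.0945 with MO2 in the fit, where 0 genes passed and 719 had an unadjusted p under 0.05. The corresponding log2 differences were 1.20 ± 0.19 (SE) for ENSRNOG00000008676, with an adjusted p of 0.198 by limma, and -1.79 ± 0.20 (SE) for ENSRNOG00000026124, with an adjusted p of 0.111. At an unadjusted p under 0.05 by limma, 16 of the 24 rises and 2 of the 14 falls kept their direction, and 0 had the opposite one. Of all genes, 11.9% had such a p in either direction. With MO2 kept, the counts were 15 and 1, with 1 rise in the opposite direction, against 7.42% of all genes.

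**Figure D3:**
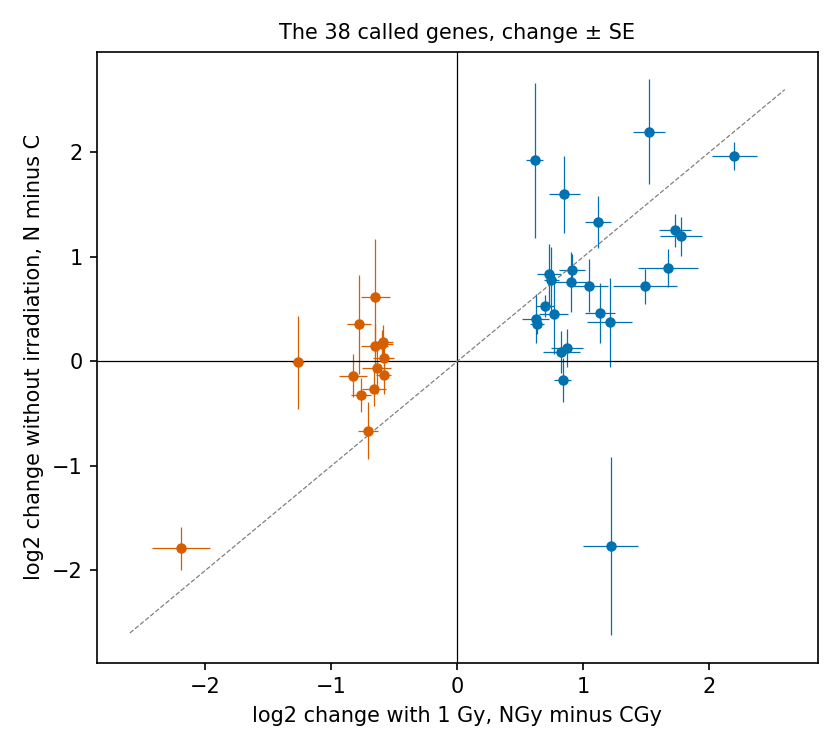
Log2 change with Noggin in 1 Gy neurospheres (horizontal axis, NGy minus CGy) against that without irradiation (vertical axis, N minus C without MO2) for the 38 called genes, with SE bars and the line of equal change dashed. Most of the 24 rises lie above 0 on both axes, while most of the 14 falls lie near 0 on the vertical axis.

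Whether the effect of Noggin differed with irradiation was tested directly as an interaction over NGy, CGy, N and C. Of 9958 genes, 1 passed an adjusted p of at most 0.05, and 1648 (16.5%) had an unadjusted p under 0.05. The count was 0 with MO2 kept, after quantile normalization, or without MO5, MO8, MO15, MO16 or MO18, with 1136 to 1659 genes at an unadjusted p under 0.05 by limma in these fits. It was 3 without MO6 and 2 without MO3, MO14B or MO17. In the corrected values it was 2392 of 9936 genes (24.1%). The gene that passed was not among the 38. It had 7.79, 5.89 and 7.22 TPM in C and 14.1, 14.4, 12.6 and 13.7 TPM in N, but 9.30, 9.70, 9.85 and 9.63 TPM in CGy and 9.07, 8.27, 7.75 and 9.72 TPM in NGy. Noggin went with higher values in the unirradiated samples, which did not overlap, whereas the irradiated samples overlapped. The difference between the 2 log2 changes was -1.02 ± 0.12 (SE), at an adjusted p of 0.0133 by limma, and with MO2 in the fit the adjusted p was 0.435. In the uncorrected values 0 of the 38 genes passed the interaction test by limma, where their smallest adjusted p was 0.175 and 19 had an unadjusted p under 0.05. Of the 38 genes, 21 passed in the corrected values, with a smallest adjusted p of 3.61e-05. The 38 genes were selected on the NGy and CGy samples that also enter this interaction, so these counts are a description.

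The largest component of variation among the 8 samples did not separate the groups. The first principal component, with 38.1% of the variance, put the CGy samples MO13 and MO14B together with the NGy samples MO17 and MO18 at -18.3 to -10.1, and CGy samples MO15 and MO16 together with NGy samples MO19 and MO20 at 10.9 to 20.8. Each of these sets held 2 samples of each group. The second component, with 21.0%, separated CGy (5.18 to 20.4) from NGy (-14.8 to -7.34). The labels give no batch that could be tied to these columns, and what sets the 2 sets apart was not tested. The nearest neighbour of a sample, by root mean square difference in log2(TPM + 1), was in its own set for 8 of 8 samples and in its own group for 7 of 8. The exception was MO14B, nearest to MO18 at 0.319.

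**Figure D4:**
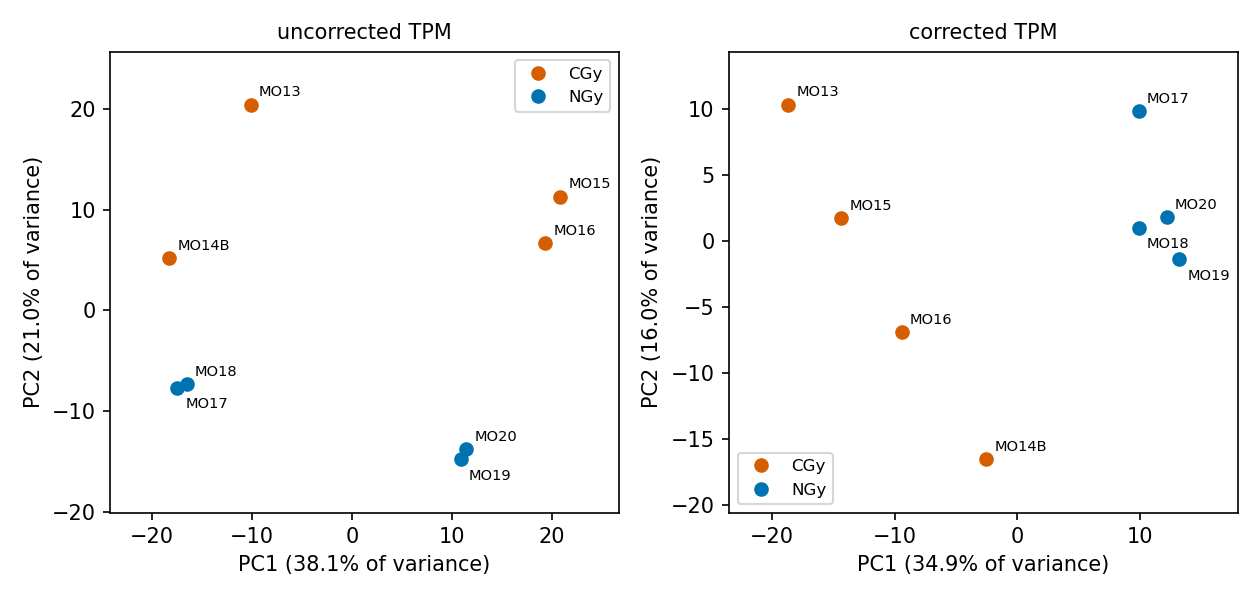
Principal components 1 and 2 of the 8 samples from uncorrected (left) and corrected (right) log2(TPM + 1), with the share of variance on each axis. On the left PC1 splits both groups in the same way and PC2 separates CGy from NGy; on the right PC1 separates CGy from NGy.

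Changes were compared within each set. The log2 change of ENSRNOG00000002382 was 2.20 in the MO13, MO14B, MO17 and MO18 set and 2.21 in the other, and that of ENSRNOG00000008676 was 1.64 and 1.90. The fall of ENSRNOG00000026124 was -1.71 and -2.68. With the set as a term in the fit, which was added after the components had been seen, 108 genes were called, 59 higher and 49 lower in NGy, and all 38 were among them. The sets hold equal numbers of each group, so this term left the log2 changes as they were and altered only their precision. The sets were also read from these same samples, so these counts are a description.

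The authors also deposited a table corrected for batch effects without MO2. In it, 137 of 9667 genes were called (1.42%), 74 higher and 63 lower in NGy, and the 38 genes were all included. The study itself reports fewer rises and fewer falls for this pair at the same thresholds. Why the counts differ was not tested. On the log2 scale the corrected values kept the mean of the CGy and the NGy group to within 3.8e-09, so the 2 tables differ in the spread within groups and not in the size of the changes, apart from corrected TPM below 0 that were set to 0. The median SD within CGy fell from 0.14 to 0.092 and that within NGy from 0.13 to 0.086. The median 95% half-width was 0.15 in place of 0.23.

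The 99 genes called only after correction were 50 rises and 49 falls. All 99 had a change of at least 1.5-fold before correction as well and missed the adjusted p, at 0.0529 to 0.658 with a median of 0.132. The NGy and CGy samples of 55 of them did not overlap before correction, and those of 95 did not overlap after it. The test on corrected values counts all samples as independent although the correction had removed spread within groups and kept the group means, and its p-values take no account of this. After correction PC1, with 34.9% of the variance, separated CGy (-18.7 to -2.54) from NGy (9.85 to 13.1), and the nearest neighbour was in the same group for 8 of 8 samples and in the same set for 0 of 8.

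How many genes were called depended on single samples. Leaving out 1 of the 8 samples in turn gave 17 to 53 called genes. The count fell by more than 1.5 times without MO13 (25), MO15 (17), MO16 (24), MO18 (23), MO19 (19) or MO20 (20), and was 26 without MO17 and 53 without MO14B. With 1 sample fewer, a fit has less precision, and the part of each sample was not separated from that. In every one of these 8 fits, 15 genes were called, 11 rises and 4 falls, and the 4 named genes were among them.

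**Figure D5:**
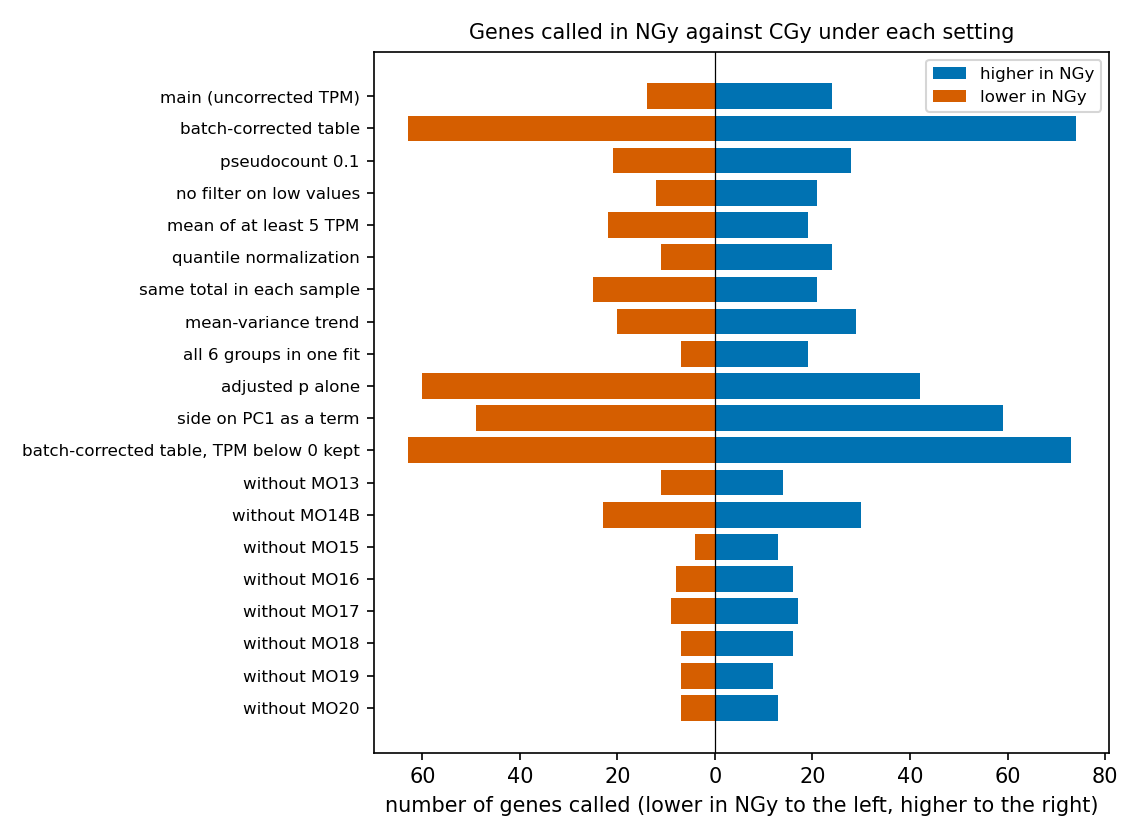
Number of genes called in NGy against CGy under each setting (rows), with rises to the right and falls to the left of 0. The main fit has 24 and 14, the fit to corrected values 74 and 63, and the fits that leave out 1 sample have between 17 and 53 in all.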

How the data were processed

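Per the labels and the study's methods, poly(A) libraries were made with a directional kit, and reads were aligned with STAR 2.6.1 to rat build Rn7. The authors estimated TPM with Kallisto, and their deposited table holds TPM for 24 samples. A second deposited table holds values (a score) that the authors had corrected for batch with NOISeq after removing the control sample MO2. It holds 0.5 times the corrected TPM + 1, as found from the values, so each value was doubled and 1 subtracted, and the 6.26% of results below 0 in the 8 samples were set to 0.

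Columns were assigned to groups from the study's group plot and methods. They could not be tied to single labelled samples, so no pairing was used, and the number of columns left out was 0. TPM keep no read counts, so depth and counting error are unknown. The spread between samples is the only measure of precision.

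NGy was compared with CGy on log2(TPM + 1), with a pseudocount of 1, where the mean of NGy or CGy reached 1 TPM, using limma 3.58.1 (lmFit, eBayes) in R 4.3.3 and the 8 samples alone. A gene was called at a Benjamini-Hochberg adjusted p of at most 0.05 and at least 1.5-fold. A fold on this scale understates the change of low genes. N was compared with C for the same genes, without MO2. The interaction used an adjusted p of at most 0.05 with no fold limit. Named genes were the 2 largest rises and 2 largest falls among called genes whose groups did not overlap, since identifiers had no symbols. The gene naming rule, the comparison and 21 gene lists were chosen with earlier results of these data known, and the lists could not be applied. Functions were tested on simulated data. Alternatives were the corrected table, a pseudocount of 0.1, no filter, a minimum of 5 TPM, quantile normalization, equal totals, a mean-variance trend, one fit over all 6 groups, the adjusted p alone and each sample left out. The set on PC1 as a term, corrected TPM below 0 kept and N against C with MO2 were added after seeing the data.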

Additional observations from a re-analysis of the deposited data

Results flagged for a closer look

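The log2 change with Noggin was lower with 1 Gy than without it by a significant amount in 1 gene, which was picked out because the difference between the 2 changes was itself tested. That difference was -1.02 ± 0.12 (SE), from a log2 change of 0.89 without irradiation and of -0.13 with it, at an adjusted p of 0.0133 by limma. The gene passed in 1 of the 2 fits that differ only in MO2. None of 34 checks for a single sample far from the other 3 of its group, on the named genes and on sample totals, medians, gene numbers and components, met Dixon's limit. With so few samples in a group that limit is hard to reach, and the count of called genes did depend on single samples.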

How the results depend on the processing

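The count of called genes moved by more than 1.5 times under several settings. It was 137 (74 higher, 63 lower in NGy) in the corrected table, 136 (73 and 63) with corrected TPM below 0 kept, 108 (59 and 49) with the set on PC1 as a term and 102 (42 and 60) at the adjusted p alone. Falls numbered 22 at a minimum of 5 TPM (19 rises) and 25 with equal totals (21 rises). With all 6 groups in one fit, falls numbered 7 (19 rises). Leaving out 1 sample gave 17 to 53 called genes, 12 to 30 rises and 4 to 23 falls. A pseudocount of 0.1, no filter, quantile normalization, equal totals and a variance trend gave 33 to 49 called genes, of which 31 to 37 were among the 38. A minimum of 5 TPM kept the call of 26 of the 38, and all 6 groups in one fit kept that of 18, among 26 called. ENSRNOG00000002382, ENSRNOG00000008676 and ENSRNOG00000026124 were called in the same direction under all 17 settings in which each was fitted. ENSRNOG00000015333 lost its call in 1 of 16, with all 6 groups in one fit. The interaction gave 2392 genes in the corrected table, 0 with MO2 (1136 at an unadjusted p under 0.05 by limma), 0 after quantile normalization (1537 by limma at an unadjusted p under 0.05) and 0 to 3 when 1 sample was left out. The causes of these differences were not tested, other than that fewer samples or genes entered some fits. Same-direction genes in N against C numbered 30 without MO2 and 28 with it.

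No paired analysis was possible because the columns could not be tied to single labelled samples. The planned counts over gene lists could not be run without symbols. Depth is unknown, so no limit can be set for genes listed at 0.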
